A study of Mus musculus with 9 samples.

Results

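The genes described here are 36 imprinted genes of the mouse, followed through the lambdoidal junction, the seam where the medial nasal, lateral nasal and maxillary processes of the face meet and fuse into the upper lip and primary palate. They were chosen by name as well-known imprinted genes of the 54532 genes in the deposited count table, by a rule that uses no measured value, although the list was drawn up with earlier results of these data known. Of these, 20 are expressed from the paternal allele, 12 from the maternal allele, and 4 (Grb10, Ddc, Gnas and Inpp5f) depend on the tissue or the isoform. Tissue came from C57BL/6J embryos of 3 stages, embryonic day 10.5 (E10.5), 11.5 (E11.5) and 12.5 (E12.5). Each stage had 3 libraries. No group carried a mutation or a treatment, and each library was a pool of several embryos, so that differences between single embryos cannot be seen. The embryos were of an inbred strain, so the parental origin of a transcript could not be measured, and the parental class is textbook knowledge.

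Imprinted genes are transcribed from a single parental copy, in most cases depending on a DNA methylation mark set in the egg or the sperm. They lie in domains that share a control region, often with a long noncoding RNA expressed from the opposite parental allele to its protein-coding neighbours. Many paternally expressed members, such as Igf2, Dlk1, Mest and Peg3, act in fetal growth, whereas several maternally expressed ones, such as Cdkn1c, Igf2r, Phlda2 and the noncoding H19, restrain it. Many are abundant in the embryo and decline in most tissues after birth.

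Promoter windows of 300 bases around the RefSeq start sites (GRCm38.p6) were matched by symbol for 30 of the 36 genes. The Peg3 window is shown first, since the paternally expressed Peg3 and Usp29 are transcribed in opposite directions from starts 147 bases apart, and both RNAs fell. Its capitals mark the 263 bases that also lie in the Usp29 window, read on the strand of Peg3. The other windows belong to differentially expressed members and hold the hexamer TGCCGC, the sequence that the imprint-protecting zinc finger protein ZFP57 binds when it is methylated, which is in capitals on either strand (GCGGCA on the opposite strand). Where a gene has several windows, the one with the most matches is shown, and the lowest start among ties. For Zdbf2 the window shown lies upstream of the gene model that was counted (chr1:63273265-63314576). The window at the start of that model, chr1:63273019-63273318, holds no hexamer.
Peg3, chr7:6730370-6730669, minus strand: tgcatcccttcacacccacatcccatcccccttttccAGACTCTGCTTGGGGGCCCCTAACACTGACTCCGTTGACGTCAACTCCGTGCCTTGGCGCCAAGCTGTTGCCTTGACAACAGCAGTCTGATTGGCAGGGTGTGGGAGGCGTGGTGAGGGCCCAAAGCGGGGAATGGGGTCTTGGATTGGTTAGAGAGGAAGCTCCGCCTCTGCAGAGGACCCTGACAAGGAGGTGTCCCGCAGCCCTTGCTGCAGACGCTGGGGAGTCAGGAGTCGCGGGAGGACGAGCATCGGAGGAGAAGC
Mest, chr6:30737800-30738099, plus strand: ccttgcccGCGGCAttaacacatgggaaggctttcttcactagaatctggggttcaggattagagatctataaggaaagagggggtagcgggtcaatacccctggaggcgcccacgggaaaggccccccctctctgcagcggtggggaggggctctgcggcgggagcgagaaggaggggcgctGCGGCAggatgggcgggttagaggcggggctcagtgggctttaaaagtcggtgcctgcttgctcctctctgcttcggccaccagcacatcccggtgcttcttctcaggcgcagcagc
Zdbf2, chr1:63200108-63200407, plus strand, the upstream of its annotated starts: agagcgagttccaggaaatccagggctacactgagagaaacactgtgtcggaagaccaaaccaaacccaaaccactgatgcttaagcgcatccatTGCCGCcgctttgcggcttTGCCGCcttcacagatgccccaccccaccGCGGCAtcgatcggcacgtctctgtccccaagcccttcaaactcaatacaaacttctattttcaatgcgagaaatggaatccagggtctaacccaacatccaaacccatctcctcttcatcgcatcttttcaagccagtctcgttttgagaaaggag
Nap1l5, chr6:58907077-58907376, minus strand: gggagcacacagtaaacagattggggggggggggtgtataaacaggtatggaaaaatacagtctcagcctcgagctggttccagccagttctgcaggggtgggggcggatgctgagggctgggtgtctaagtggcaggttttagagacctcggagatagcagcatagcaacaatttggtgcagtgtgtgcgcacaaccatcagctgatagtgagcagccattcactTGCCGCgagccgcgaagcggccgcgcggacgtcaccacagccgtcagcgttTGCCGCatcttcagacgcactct
Meg3, chr12:109540746-109541045, plus strand: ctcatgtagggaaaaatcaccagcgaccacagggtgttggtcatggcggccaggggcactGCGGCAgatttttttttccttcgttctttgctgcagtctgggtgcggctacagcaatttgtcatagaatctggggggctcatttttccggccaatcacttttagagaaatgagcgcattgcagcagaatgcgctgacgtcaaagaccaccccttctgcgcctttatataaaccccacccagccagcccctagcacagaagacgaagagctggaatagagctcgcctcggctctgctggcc
Zim1, chr7:6696383-6696682, minus strand: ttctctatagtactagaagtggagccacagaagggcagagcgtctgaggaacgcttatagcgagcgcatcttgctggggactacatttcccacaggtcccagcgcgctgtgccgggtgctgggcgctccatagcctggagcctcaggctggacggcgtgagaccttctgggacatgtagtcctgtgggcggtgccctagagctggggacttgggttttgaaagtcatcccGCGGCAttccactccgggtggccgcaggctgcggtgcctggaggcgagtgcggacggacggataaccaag
The hexamer was found in at least 1 window of 10 of the 30 genes, beside 3527 of all 27025 genes with a window. It was in 11 (22.4%) of their 49 windows, beside 11.6% of all 32851 windows. The 11 include overlapping Mest windows that start at 30737800 and 30737803 and hold the same hexamers, so windows are not independent. In some comparison 12 members were differentially expressed, at an adjusted p of at most 0.05 and at least 2-fold. Of these 10 had a window, and 5 of the 10 held the hexamer. Such a match describes letters in a window and is not a binding site.

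Some members are also hosts of microRNAs. H19 is the host of miR-675, which is known to act on the growth factor receptor gene Igf1r, Mest is the host of miR-335, and Igf2 of miR-483. Their mature sequences from RefSeq are shown with the seed, bases 2 to 8, in capitals. The libraries were made for long RNA, and mature microRNA levels were not analysed here.
miR-675-5p: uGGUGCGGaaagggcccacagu
miR-675-3p: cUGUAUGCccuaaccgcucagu
miR-335-5p: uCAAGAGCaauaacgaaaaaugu
miR-335-3p: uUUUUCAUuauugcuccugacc
miR-483-5p: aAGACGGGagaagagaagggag
miR-483-3p: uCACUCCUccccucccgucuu
None of these 6 seeds was shared.

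The 9 libraries held 16581009 to 20836804 counts each. Levels are given as counts per 1000000 (CPM) on library sizes scaled by the trimmed mean of M-values, and per kilobase of exon where genes are compared with each other. A gene is said to have risen or fallen at an adjusted p of at most 0.05 (edgeR quasi-likelihood test, adjusted over all genes tested), and to be a differentially expressed gene (DEG) where the change was also at least 2-fold. E10.5 replicate 3 stood apart. Its deviation from the mean of the E10.5 libraries had a Spearman correlation of -0.55 with GC content across genes. For the other E10.5 libraries this was 0.44 and 0.47. The deviations within a stage cancel out, so these values are not independent. The SD of the log2 difference between replicate 3 and the other E10.5 libraries was 0.71 and 0.70. For the other pairs within a stage it was 0.37 to 0.59. Markers of several cell types moved with stage. Summed levels of 7 facial mesenchyme markers were 986 to 1657 CPM in E10.5 libraries, 2266 to 2417 CPM in E11.5 libraries and 2343 to 2628 CPM in E12.5 libraries, with the lowest value in E10.5 replicate 3. That library was also lowest in 5 endothelial markers (102 CPM beside 279 and 282 CPM in the other E10.5 libraries) and highest in 7 epithelial markers (697 CPM beside 385 and 438 CPM). Summed levels of 7 forebrain and eye markers were 213 to 297, 94.5 to 98.9 and 124 to 164 CPM, with 2 of them at 3 counts or fewer in every E11.5 library. Those of 9 neuronal markers were 179 to 212, 201 to 222 and 296 to 331 CPM, but in E12.5 vs. E10.5 only Stmn2 of the 9 rose (mean 17.5 and 106 CPM) and none fell. The sums of 6 red blood cell markers were 1834 to 2756, 3130 to 3476 and 3543 to 4598 CPM, and those of 6 cartilage and bone markers were 596 to 1034, 792 to 904 and 1076 to 1582 CPM. For epithelial markers they were 398 to 425 CPM at E11.5 and 637 to 719 CPM at E12.5. The part of these shifts in the results was not tested, and in bulk tissue fewer expressing cells and less RNA per cell cannot be told apart.

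The levels of the 36 genes were spread widely, and their order changed with stage. As a mean over all 9 libraries H19 had the highest level, 636 CPM per kilobase. It was followed by the proteolipid gene Nnat (334), the hydrolase-like Mest (236), the growth factor receptor adaptor Grb10 (174) and the cyclin-dependent kinase inhibitor Cdkn1c (161 CPM per kilobase). H19 was first at each stage, while Mest went from the second place at E10.5 (374) to the fifth at E12.5 (121) and Cdkn1c from the sixth (102) to the third (248 CPM per kilobase). The retrotransposon-derived Peg10 stood at 140.3, 105 and 47.0 CPM per kilobase in the order of stages. Mean levels of the Notch-ligand-like Dlk1 were 80.6, 23.5 and 11.9 CPM per kilobase, those of the zinc finger gene Peg3 52.1, 32.4 and 29.0, and those of the growth suppressor Ndn 31.3, 34.7 and 43.2, so that the order of these 3 was opposite at E10.5 and E12.5. Igf2, the main fetal growth factor of the group, stood at 9.98 CPM per kilobase over all libraries, a value that divides by exon bases of which 62.8% are shared with another gene model on the same strand. At the low end were Nap1l5 (0.677), Slc22a18 (0.597), Ascl2 (0.18) and Kcnq1ot1 (0.162 CPM per kilobase). Ascl2, a transcription factor of the placenta, had 2 to 11 counts per library, was too low for the count filter, and was tested in no comparison, which left 35 of the 36 genes tested.

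All 36 genes together took 0.843 to 0.908% of the counts of an E10.5 library, 0.742 to 0.747% of an E11.5 library and 0.697 to 0.759% of an E12.5 library. The share of the 20 paternally expressed genes was, in the same order of stages, 0.457 to 0.508%, 0.339 to 0.347% and 0.241 to 0.294%, and no 2 stages overlapped. For the 12 maternally expressed genes the share was 0.204 to 0.223%, 0.209 to 0.223% and 0.288 to 0.322%. The first 2 stages overlapped and E12.5 lay above both. The maternal share was below the paternal share in all 6 libraries of E10.5 and E11.5 and above it in 2 of the 3 E12.5 libraries. H19 made up most of the maternal share. Without it the other 11 genes took 0.0867 to 0.0911%, 0.0773 to 0.0825% and 0.092 to 0.11%. Without Mest, the most counted paternal gene, the other 19 took 0.298 to 0.367%, 0.256 to 0.262% and 0.199 to 0.236%, still with no overlap between stages.

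**Figure D1:**
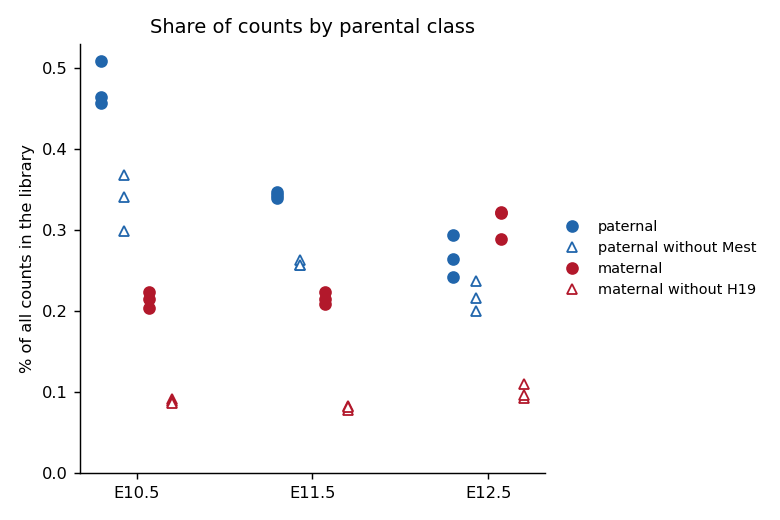
Share of all counts of a library (vertical axis, %, from 0) taken by the paternally expressed (blue) and maternally expressed (red) genes at each stage, one point per library, with open triangles for the same classes without Mest or without H19. The paternal share went from 0.457 to 0.508% at E10.5 to 0.241 to 0.294% at E12.5, while the maternal share was highest at E12.5 and, without H19, stayed at or below 0.11%.

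In E11.5 vs. E10.5, which addresses the approach and contact of the facial processes, the tested imprinted genes were mostly lower at the later stage. Of the 35, 10 fell, beside 5.58% of all genes, 1 rose, beside 6.19%, and 24 did not pass the test. Their median log2 fold change was -0.32, beside -0.03 over all 15708 genes tested. There were 5 DEGs (14.3%), all downregulated, beside 6.07% of all genes called in either direction, 2.61% called lower and 3.46% called higher. The DEGs were the paternally expressed Dlk1, Magel2 and Nap1l5 and the maternally expressed Meg3 and Zim1. In 18 genes all 3 E11.5 libraries lay below all 3 E10.5 libraries and in 3 they lay above, beside 18.3% of all genes in each direction and 36.7% in either. Among paternally expressed genes 6 of 20 fell and none rose (median -0.43), and among maternally expressed genes 4 of 11 fell and 1 rose (median -0.30). Asb4 was the gene that rose. Without E10.5 replicate 3 there were 6 DEGs, beside 1592 of all 16263 genes tested in that fit. Leaving out E11.5 replicate 1 or 3 left 2, Dlk1 and Meg3, beside 395 of 16166 and 453 of 16205 genes. Leaving out E11.5 replicate 2 left 3, beside 663 of 16198. With no library left out, 954 of 15708 genes were called.

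In E12.5 vs. E11.5, which addresses the completion of fusion, changes went both ways. Of the 35 genes 4 rose, beside 7.61% of all genes, 5 fell, beside 4.57%, and 26 did not pass. The median log2 fold change was 0.03, beside 0.02 over all 15808 genes. There were 3 DEGs (8.57%), Asb4 and Peg10 downregulated and Nap1l5 upregulated, beside 5.1% of all genes in either direction, 0.962% called lower and 4.14% called higher. Among paternally expressed genes 2 rose and 4 fell (median 0.02). Of the maternally expressed genes 2 rose and 1 fell (median 0.42). In 8 genes all E12.5 libraries lay above all E11.5 libraries and in 8 below, beside 18.5% and 16.8% of all genes (35.3% in either direction). Without E12.5 replicate 2 there were 6 DEGs, beside 1181 of all 16178 genes tested in that fit and 806 of 15808 with all libraries. E11.5 libraries entered both this comparison and the preceding one, so their values are given side by side and not set against each other.

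Over the whole interval, E12.5 vs. E10.5, 10 imprinted genes fell, beside 10.5% of all genes, 4 rose, beside 14%, and 21 did not pass the test. These 14 made up 40% of the 35, beside 24.6% of all genes that passed in either direction. The median log2 fold change was -0.31, beside -0.01 over all 15899 genes tested. The 9 DEGs (25.7%) stood beside 15% of all genes in either direction. Of these 7 were downregulated, beside 5.08% of all genes called lower, and 2 were upregulated, beside 9.97% called higher. All 6 DEGs of the paternal class were downregulated: Dlk1, Magel2, Mest, Peg10, Zdbf2 and Usp29. Of the 3 DEGs of the maternal class, Cdkn1c and Slc22a18 were upregulated and Meg3 was downregulated. The 4 genes whose imprinting depends on tissue or isoform passed the test in none of the 3 comparisons. The difference between the parental classes was not tested, and their medians were -0.24 (paternal) and -0.38 (maternal). In 14 genes all E12.5 libraries lay below all E10.5 libraries and in 7 above, beside 20.4% and 22% of all genes (42.4% in either direction). There were 8 DEGs without E10.5 replicate 3, beside 2738 of all 16501 genes tested in that fit and 2392 of 15899 with all libraries.

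**Figure D2:**
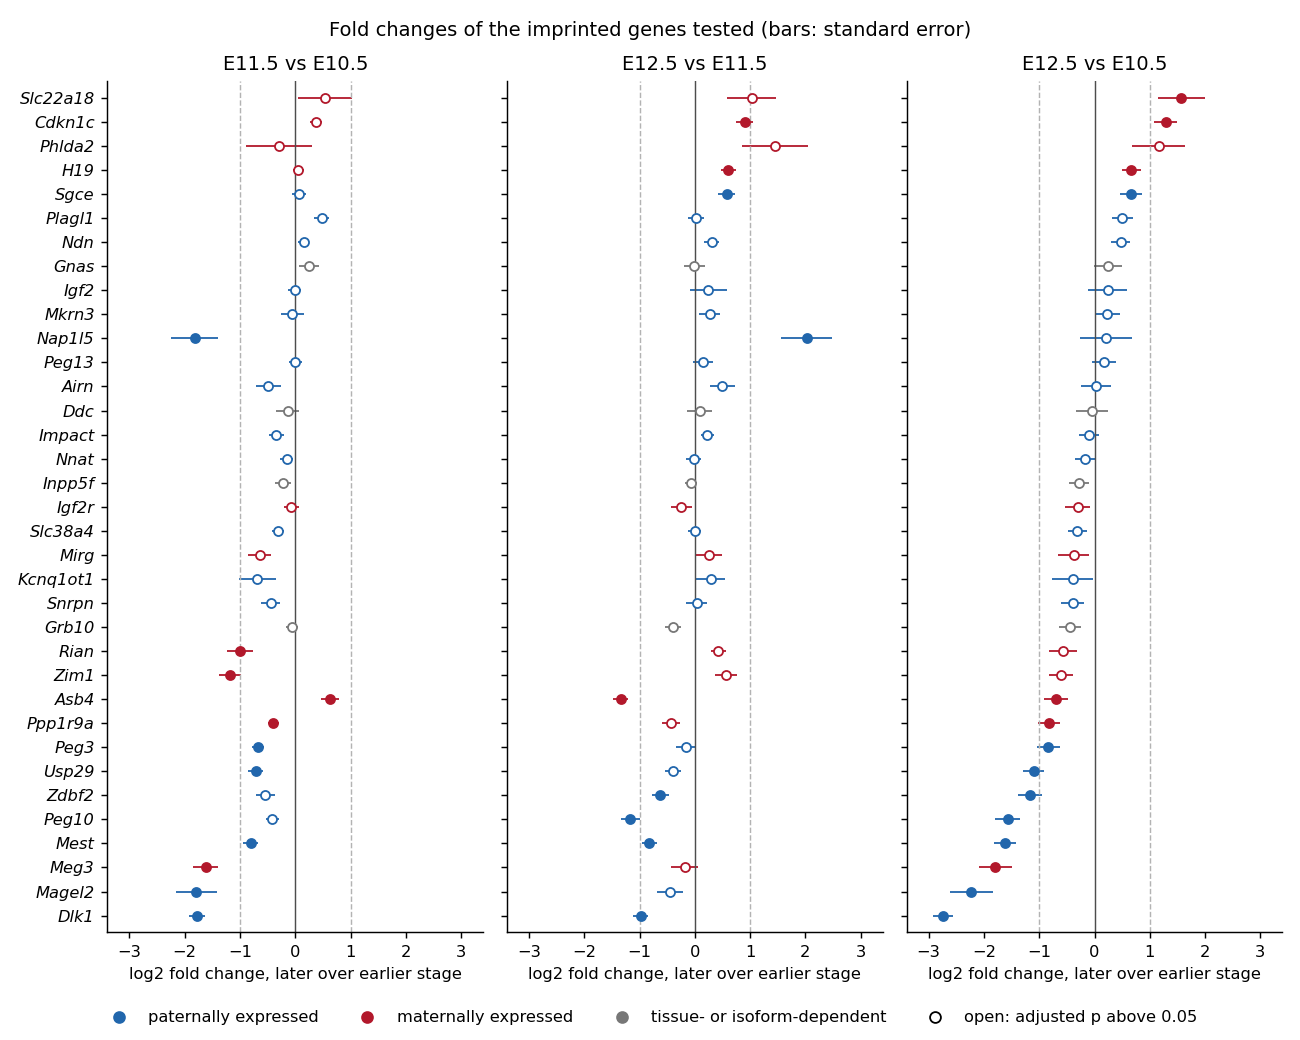
Log2 fold change (horizontal axis, later over earlier stage) of the 35 imprinted genes tested in each of 3 comparisons, with bars for the standard error, filled points for an adjusted p of at most 0.05 and dashed lines at a 2-fold change. Dlk1, at -2.75, is lowest in E12.5 vs. E10.5, and Slc22a18, at 1.57, is highest.

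The Dlk1-Meg3 domain on chromosome 12 held Dlk1, the member with the lowest log2 fold change in E12.5 vs. E10.5. Dlk1 (chr12:109452823-109463336), a transmembrane ligand-like protein that keeps progenitors undifferentiated, stood at 439.6, 499 and 430.1 CPM at E10.5, 112, 151 and 135 at E11.5, and 71.9, 69.4 and 61.3 at E12.5. The 3 stages did not overlap. It fell in E11.5 vs. E10.5 (log2 fold change -1.78, SE 0.14, adjusted p = 0.001) and again in E12.5 vs. E11.5 (log2 fold change -0.98, SE 0.14, adjusted p = 0.00142), and over the whole interval its log2 fold change was -2.75 (SE 0.18, adjusted p = 3.11e-06), a 6.71-fold lower mean. The second fall was just short of 2-fold and passed it without E11.5 replicate 1 (-1.10), E12.5 replicate 1 (-1.02) or E12.5 replicate 2. Meg3 (chr12:109541001-109571726), a maternally expressed noncoding RNA of the same domain, stood at 126, 122 and 71.9 CPM at E10.5, 41.6, 32.4 and 29.8 at E11.5, and 42.1, 30.4 and 19.1 at E12.5. It fell in the first step (log2 fold change -1.62, SE 0.23, adjusted p = 0.00497), with E11.5 and E12.5 overlapping (log2 fold change -0.18, SE 0.24, adjusted p = 0.641). The difference between its steps did not pass (second minus first 1.45, SE 0.49, adjusted p = 0.227). Within E10.5, replicate 3 was the lowest for Meg3. Rian, another maternal noncoding RNA of this cluster and a host of small nucleolar RNAs, stood at 194, 199.6 and 359 CPM at E10.5, 131, 122 and 123 at E11.5, and 203, 153 and 149 at E12.5. It fell in E11.5 vs. E10.5 (log2 fold change -0.9985, SE 0.23, adjusted p = 0.031), just under the 2-fold limit, with the highest value in E10.5 replicate 3 and the call lost without any of the E11.5 libraries, and did not pass in E12.5 vs. E10.5 (log2 fold change -0.57, SE 0.26, adjusted p = 0.133). Mirg, the microRNA host at the end of the cluster, stayed between 4.21 and 9.48 CPM and passed in no comparison. Of the exon bases of these 3 noncoding genes, 1.5 to 5.03% overlap small RNA genes on the same strand.

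In the Peg3 domain on chromosome 7, all 3 members were lower at E11.5 than at E10.5, whichever parental allele they are expressed from. Peg3 (chr7:6703892-6730431), a zinc finger protein of growth and maternal behaviour, stood at 641, 759 and 681 CPM at E10.5, 429.7, 453 and 414 at E11.5, and 330.5, 499.7 and 328 at E12.5. It fell in E11.5 vs. E10.5 (log2 fold change -0.68, SE 0.11, adjusted p = 0.00706) and stayed low (log2 fold change -0.17, SE 0.17, adjusted p = 0.537 in the next step), with E12.5 replicate 2 the highest of its stage. The fall over the whole interval (log2 fold change -0.84, SE 0.21, adjusted p = 0.0143) was lost without E10.5 replicate 2, E12.5 replicate 1 or E12.5 replicate 3, and passed the 2-fold limit without E12.5 replicate 2 (-1.07). Usp29 (chr7:6730578-6967219), a ubiquitin-specific protease whose transcript starts beside that of Peg3, stood at 32, 36 and 39.6 CPM at E10.5, 20.5, 24.1 and 20.9 at E11.5, and 14.7, 19.2 and 16 at E12.5. The stages did not overlap, and it was a DEG over the whole interval (log2 fold change -1.10, SE 0.19, adjusted p = 0.0021) with each library left out in turn. The first-step falls of Peg3 and Usp29 (log2 fold change -0.71, SE 0.13, adjusted p = 0.0139) were lost without E11.5 replicate 1 or 3. Zim1 (chr7:6671269-6696450), a maternally expressed zinc finger gene, stood at 12.8, 15.8 and 18.5 CPM at E10.5, 7.05, 8.08 and 5.64 at E11.5, and 9.92, 11.9 and 9.01 at E12.5. It fell in the first step (log2 fold change -1.18, SE 0.20, adjusted p = 0.0105), a call lost without E11.5 replicate 1 (adjusted p = 0.0667) or replicate 3 (adjusted p = 0.0632). At E12.5 all of its libraries were above all those of E11.5 and below all those of E10.5, with log2 fold change 0.56, SE 0.19, adjusted p = 0.0803 in the second step. The difference between its steps passed the test in the fit over all 9 libraries (second minus first 1.75 on the log2 scale, SE 0.37, adjusted p = 0.0432), as it did for 2 members in all beside 1.18% of all 16375 genes. This call was lost in 7 of 9 fits with a library left out (adjusted p = 0.0523 to 0.28), all but those without E10.5 replicate 1 or 3, and with at least 10 counts required in every library (0.0509).

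Around Peg10 on chromosome 6, neighbouring imprinted genes moved in different directions. Peg10 (chr6:4747306-4760517), a gag-pol-derived gene needed for the placenta, stood at 917, 1072 and 818 CPM at E10.5, 700.3, 737 and 664 at E11.5, and 343, 370.4 and 226 at E12.5. The stages did not overlap. Peg10 fell in the second step (log2 fold change -1.17, SE 0.18, adjusted p = 0.00205), a fold change that was -0.99, just under the 2-fold limit, without E12.5 replicate 3. In the first step it did not pass (log2 fold change -0.41, SE 0.12, adjusted p = 0.068). The difference between its steps did not pass either (second minus first -0.74, SE 0.31, adjusted p = 0.365). Sgce (chr6:4674350-4747207), the epsilon-sarcoglycan gene, is also paternally expressed and starts 99 bases from Peg10 on the opposite strand. It stood at 23.9, 23.8 and 28.4 CPM at E10.5, 26, 25.9 and 27.6 at E11.5, and 46.3, 32 and 40.6 at E12.5. Unlike Peg10 it rose in E12.5 vs. E11.5 (log2 fold change 0.58, SE 0.15, adjusted p = 0.0306) and in E12.5 vs. E10.5 (log2 fold change 0.65, SE 0.20, adjusted p = 0.0337), so that the 2 genes of this divergent pair had changes of opposite sign. The first of these calls was lost without E12.5 replicate 1 or any E11.5 library, and the second without E12.5 replicate 1 or 3 or E10.5 replicate 1 or 2. Ppp1r9a (neurabin, an actin-binding protein), maternally expressed, stood at 57.8, 58.2 and 52.8 CPM at E10.5, 43.4, 43.6 and 40.7 at E11.5, and 33.8, 37.2 and 23.7 at E12.5. It fell in E12.5 vs. E10.5 (log2 fold change -0.82, SE 0.20, adjusted p = 0.0126), a call that held with each library left out in turn.

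Asb4 (chr6:5383386-5433022), a maternally expressed ankyrin-repeat protein of ubiquitin ligase complexes at the far end of the Peg10 domain, peaked at E11.5. It stood at 86.3, 88.8 and 57.5 CPM at E10.5, 116, 124 and 120.2 at E11.5, and 39.6, 55.4 and 47.2 at E12.5. None of the 3 stages overlapped. It rose in E11.5 vs. E10.5 (log2 fold change 0.63, SE 0.16, adjusted p = 0.044), a call that held only without E10.5 replicate 3 among the 6 fits with a library left out, and fell in E12.5 vs. E11.5 (log2 fold change -1.34, SE 0.14, adjusted p = 0.000269), a call that held in all 6. Over the whole interval it fell (log2 fold change -0.70, SE 0.21, adjusted p = 0.0338), which was lost without E10.5 replicate 1 or 2 or E12.5 replicate 1 or 3. The second step differed from the first by -1.965 on the log2 scale (SE 0.30, adjusted p = 0.00938). Without any of the E11.5 libraries the adjusted p of this difference was 0.0531 to 0.0714.

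Magel2, Ndn, Mkrn3 and Snrpn, paternally expressed genes of the region homologous to that of Prader-Willi syndrome on chromosome 7, did not move together. Magel2 (chr7:62377010-62381640), a regulator of protein ubiquitination and endosomal sorting, stood at 20.6, 26.7 and 8.61 CPM at E10.5, 4.47, 6.06 and 5.58 at E11.5, and 5.18, 3.67 and 2.98 at E12.5. Its E10.5 libraries were far apart but all above every later library. It fell in E11.5 vs. E10.5 (log2 fold change -1.79, SE 0.38, adjusted p = 0.0215), a call that held in only 1 of 6 fits with a library left out, the one without E10.5 replicate 3 (-2.13), and in E12.5 vs. E10.5 (log2 fold change -2.23, SE 0.39, adjusted p = 0.00212), where it held in all 6. Its exons have a GC content of 57.6%, and GC-rich genes tended to be low in E10.5 replicate 3. Whether this bears on the value of Magel2 in that library was not tested. Ndn, a neuronal growth suppressor, was between 111 and 124 CPM at E10.5 and between 135 and 187 CPM at E12.5, without overlap, and did not pass (log2 fold change 0.47, SE 0.18, adjusted p = 0.0778). Mkrn3 and Snrpn, at 5.76 to 8.47 and 16.95 to 33.4 CPM, passed in no comparison. Of the Snrpn exon bases 27.3% overlap same-strand genes, mainly Snurf, whose own row is 0 in every library.

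**Figure D3:**
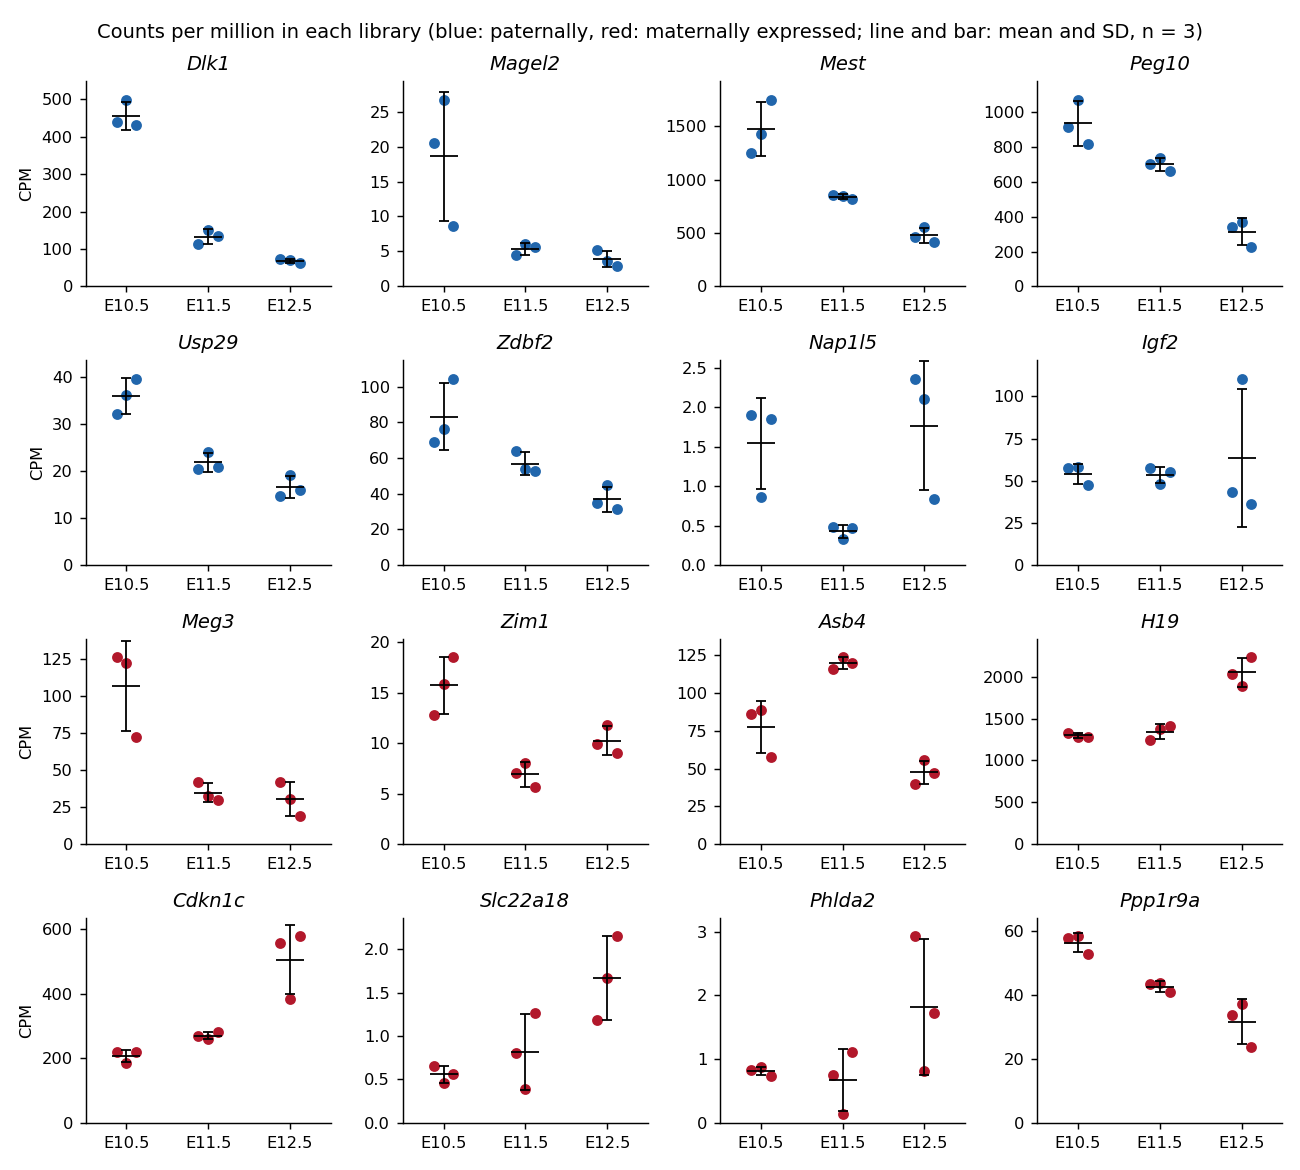
CPM (vertical axes, from 0) of 16 imprinted genes in each of the 9 libraries by stage, blue for paternally and red for maternally expressed genes, with the mean and SD of 3 libraries in black. Dlk1, Mest, Peg10, Usp29 and Zdbf2 step down at each stage, Asb4 is highest at E11.5, Nap1l5 is lowest there, and in Igf2 a single E12.5 library stands at 110.6 CPM.

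Mest, Zdbf2 and Nap1l5 lie in small domains of their own. Mest (chr6:30723547-30748465), a paternally expressed gene of mesoderm and growth, stood at 1247, 1430 and 1747 CPM at E10.5, 858, 849 and 815 at E11.5, and 460.5, 557 and 413 at E12.5. It fell by similar amounts in both steps (log2 fold change -0.81, SE 0.14, adjusted p = 0.0101, then log2 fold change -0.82, SE 0.14, adjusted p = 0.00385) and had no overlap between stages. The first of these calls was lost without E11.5 replicate 1 or 3. Its whole change (log2 fold change -1.62, SE 0.21, adjusted p = 0.000268) kept past the 2-fold limit with each library left out in turn. Antisense to 23.1% of its exon bases runs Copg2, which had 1477 to 2477 counts per library, and the library kit does not mark strand. Zdbf2 (chr1:63273265-63314576), a zinc finger gene that sets early feeding and growth, stood at 68.8, 76.2 and 104 CPM at E10.5, 64.1, 53.7 and 52.7 at E11.5, and 34.6, 44.8 and 31.2 at E12.5. It fell in the second step (log2 fold change -0.63, SE 0.16, adjusted p = 0.0257), a call lost without E12.5 replicate 1 or any E11.5 library, and over the whole interval (log2 fold change -1.17, SE 0.22, adjusted p = 0.00298), with -0.96 and so under the 2-fold limit without E10.5 replicate 3, which was its highest library. Nap1l5 (chr6:58905233-58907076), a nucleosome assembly protein-like retrogene, stood at 1.9, 0.871 and 1.86 CPM at E10.5, 0.484, 0.337 and 0.474 at E11.5, and 2.37, 2.1 and 0.835 at E12.5. It was lowest at E11.5 in every library, with 7 to 9 counts, against 15 to 32 counts at E10.5 and 14 to 42 at E12.5. Its fall (log2 fold change -1.82, SE 0.43, adjusted p = 0.0311) and its rise (log2 fold change 2.02, SE 0.46, adjusted p = 0.0169) each held in 2 of 6 fits with a library left out, and the difference between the steps did not pass (3.85, adjusted p = 0.0617).

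Of the Kcnq1ot1 domain on chromosome 7, the maternally expressed Cdkn1c and Slc22a18 rose over the whole interval. Cdkn1c (chr7:143458339-143461050), which encodes the cell cycle inhibitor p57Kip2, stood at 219, 187 and 218 CPM at E10.5, 269, 259 and 281 at E11.5, and 556, 382 and 578 at E12.5. It rose in E12.5 vs. E11.5 (log2 fold change 0.90, SE 0.16, adjusted p = 0.00498) and over the whole interval (log2 fold change 1.29, SE 0.20, adjusted p = 0.00112), a call that held with each library left out, and the second step passed the 2-fold limit without E12.5 replicate 2 (1.06). Its 3 stages did not overlap. Slc22a18 (chr7:143473736-143499334), an organic cation transporter-like gene, stood at 0.654, 0.464 and 0.557 CPM at E10.5, 0.807, 0.385 and 1.26 at E11.5, and 1.18, 1.67 and 2.15 at E12.5. Its rise over the whole interval (log2 fold change 1.57, SE 0.42, adjusted p = 0.0194) rested on 8 to 36 counts per library and was lost without E10.5 replicate 2, E12.5 replicate 2 or E12.5 replicate 3. Phlda2, a pleckstrin-homology protein that limits placental growth, had 3 to 52 counts per library and did not pass (log2 fold change 1.16, SE 0.49, adjusted p = 0.108). Kcnq1ot1 (chr7:143203458-143296549), the paternally expressed antisense RNA that silences this domain in cis, stood at 26, 21.4 and 9.66 CPM at E10.5, 14.4, 9.91 and 11 at E11.5, and 20.3, 13.8 and 9.01 at E12.5. It passed in no comparison (log2 fold change -0.69, SE 0.34, adjusted p = 0.226 in E11.5 vs. E10.5), although without E10.5 replicate 3, the lowest of its stage, the first step was -1.01 (adjusted p = 0.000271).

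Igf2 and H19 share enhancers and a control region on chromosome 7. H19 (chr7:142575529-142578143), the maternally expressed noncoding RNA, stood at 1330, 1282 and 1285 CPM at E10.5, 1241, 1381 and 1410 at E11.5, and 2029, 1893 and 2231 at E12.5. The first 2 stages overlapped and E12.5 lay above both, with a rise in E12.5 vs. E11.5 (log2 fold change 0.60, SE 0.13, adjusted p = 0.0144) and in E12.5 vs. E10.5 (log2 fold change 0.67, SE 0.17, adjusted p = 0.0175), under 2-fold in each. The first of these calls was lost without any E11.5 library and the second without E10.5 replicate 1 or 2 or E12.5 replicate 1. Igf2 (chr7:142650766-142666816), stood at 57.3, 57.9 and 47.4 CPM at E10.5, 57.5, 48.3 and 54.9 at E11.5, and 43.3, 111 and 36.5 at E12.5. The 3 E12.5 libraries were far apart, with replicate 2 well above the rest. It did not pass in E12.5 vs. E10.5 (log2 fold change 0.24, SE 0.35, adjusted p = 0.668), and without E12.5 replicate 2 the sign turned (-0.44, adjusted p = 0.135). In E12.5 vs. E11.5 it also turned, from 0.24 (adjusted p = 0.661) to -0.44 (adjusted p = 0.0248). Of the Igf2 exon bases 62.8% overlap the same-strand gene Gm49394, which had 0 counts in every library, and whether reads of the shared bases reached the Igf2 row was not tested.

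Igf2r (chr17:12682406-12769664), the maternally expressed receptor that clears IGF2, stood at 212, 224 and 164 CPM at E10.5, 196, 180.4 and 195 at E11.5, and 156, 212 and 115 at E12.5. Airn (chr17:12741311-12860136), the paternally expressed antisense RNA that silences it, stood at 4.34, 6.39 and 5.14 CPM at E10.5, 3.82, 4.23 and 3.21 at E11.5, and 6.2, 5.61 and 4.17 at E12.5. Neither passed in any comparison (log2 fold change -0.31, SE 0.23, adjusted p = 0.37 for Igf2r and log2 fold change 0.02, SE 0.27, adjusted p = 0.969 for Airn in E12.5 vs. E10.5).

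The 9 members not yet described passed in no comparison. Grb10, an inhibitor of insulin and IGF signalling, was at 1665 to 1872 CPM at E10.5 and 1102 to 1555 CPM at E12.5, without overlap (log2 fold change -0.45, SE 0.19, adjusted p = 0.117). Plagl1, a zinc finger regulator of other imprinted genes, was 134 to 172 CPM at E10.5 and 194 to 253 CPM at E12.5, also without overlap (log2 fold change 0.50, SE 0.18, adjusted p = 0.0695). The log2 fold changes of the other 7, Nnat, Gnas, Inpp5f, Ddc, Peg13, Slc38a4 and Impact, were between -0.31 and 0.25 over the whole interval.

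The ratio of the paternally to the maternally expressed gene of a domain was compared within each library for 6 pairs, as log2 of the counts with 1 added to each. This ratio does not depend on library size. With 3 libraries a stage the exact two-sided permutation test cannot give a p under 0.1, so that no pair could pass. Dlk1 over Meg3 was 1.80, 2.03 and 2.58 at E10.5 and 0.77, 1.19 and 1.68 at E12.5, a difference of -0.92 with no overlap (exact p = 0.1, adjusted over 6 pairs 0.2). Kcnq1ot1 over Cdkn1c was -3.07, -3.12 and -4.49 at E10.5 and -4.77, -4.79 and -5.99 at E12.5, a difference of -1.62 with no overlap (exact p = 0.1, adjusted 0.2). Peg10 over Asb4 was 3.41, 3.59 and 3.83 at E10.5 and 3.12, 2.74 and 2.26 at E12.5, a difference of -0.90 with no overlap (exact p = 0.1, adjusted 0.2). In 2 of these pairs both genes fell in E12.5 vs. E10.5, Dlk1 (-2.75) with Meg3 (-1.79) and Peg10 (-1.57) with Asb4 (-0.70), and in the other Cdkn1c rose (1.29) while Kcnq1ot1 overlapped between stages (-0.39). The other 3 overlapped between stages. Igf2 over H19 differed by -0.61 (exact p = 0.4, adjusted 0.4) and Peg3 over Zim1 by -0.26 (exact p = 0.2, adjusted 0.3). Airn over Igf2r differed by 0.35 (exact p = 0.3, adjusted 0.36). Peg3 over Zim1 was highest at E11.5 in every library, 5.92, 5.80 and 6.18 beside 5.20 to 5.64 at E10.5 and 5.05 to 5.39 at E12.5.

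**Figure D4:**
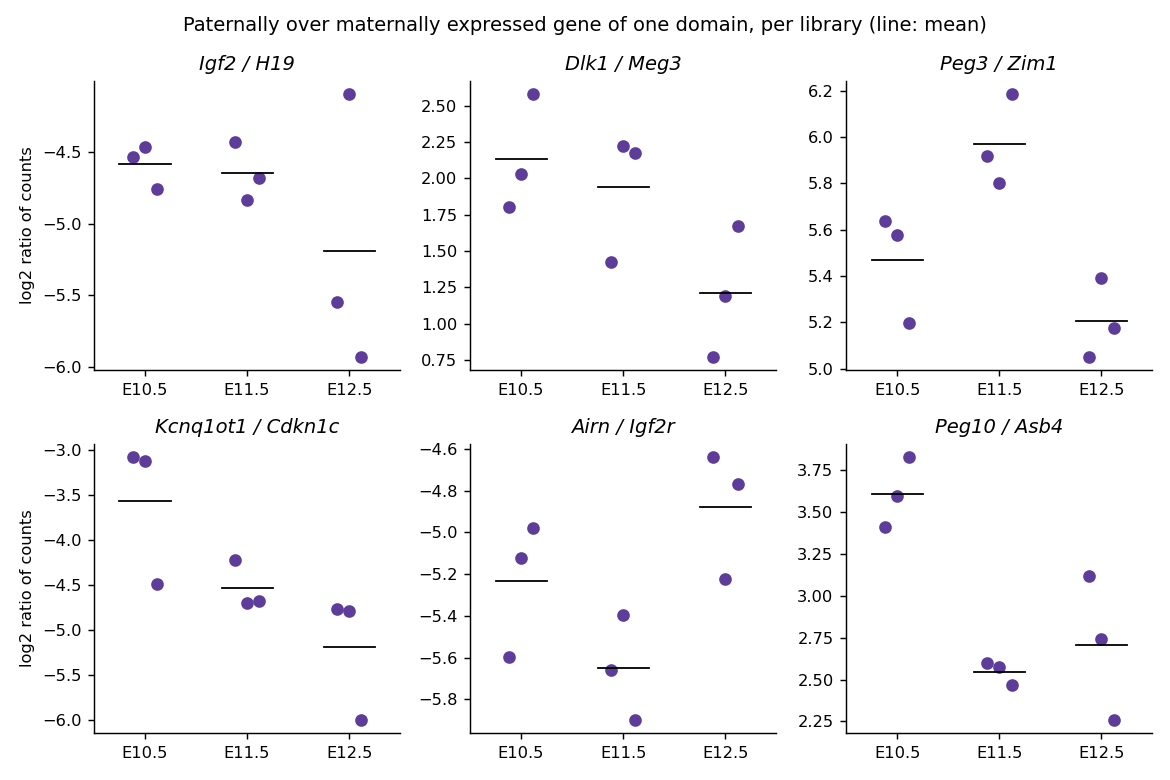
Log2 ratio of the counts of a paternally over a maternally expressed gene of the same domain (vertical axes, own scale per panel) in each library by stage, with the mean as a line. In Dlk1/Meg3, Kcnq1ot1/Cdkn1c and Peg10/Asb4 every E12.5 library lies below every E10.5 library, whereas Igf2/H19 is spread from -5.93 to -4.10 at E12.5.

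Regulators that set or keep imprints were examined from a list of 24 genes, of which 21 were tested. In E12.5 vs. E10.5, 6 fell (beside 10.5% of all genes) and none rose (beside 14%), and their median log2 fold change was -0.27. The 3 DEGs, all downregulated, made up 14.3% of those tested, beside 15% of all genes in either direction and 5.08% called lower. Dnmt3b, a de novo DNA methyltransferase, stood at 63.7, 75.7 and 70.3 CPM at E10.5, 35.9, 40.8 and 35.1 at E11.5, and 21.4, 19.8 and 18.2 at E12.5, a fall of 1.81 on the log2 scale (SE 0.18, adjusted p = 4.15e-05) without overlap of stages. Dnmt3a, another de novo methyltransferase, was 203 to 285 CPM at E10.5, 375 to 390 CPM at E11.5 and 341 to 440 CPM at E12.5. It rose in E11.5 vs. E10.5 (log2 fold change 0.61, SE 0.14, adjusted p = 0.0247), a call lost without E10.5 replicate 2 or any E11.5 library, and did not pass in E12.5 vs. E10.5 (log2 fold change 0.58, SE 0.20, adjusted p = 0.0502). Uhrf1, the partner of the maintenance methyltransferase, fell by 1.01 (SE 0.18, adjusted p = 0.00269) and was under 2-fold without E10.5 replicate 2 or E12.5 replicate 3. The helicase gene Hells stood at 155, 164 and 342 CPM at E10.5, 151, 164 and 148 at E11.5, and 101, 114 and 111 at E12.5, with E10.5 replicate 3 far above the rest. It fell by 1.01 (SE 0.28, adjusted p = 0.0237), but by 0.54 without that library (1.46-fold), and the call was lost without any E12.5 library. Zfp57, whose hexamer is marked above, stood at 54, 59.3 and 37.4 CPM at E10.5, 60.1, 57.1 and 54.8 at E11.5, and 80.3, 55 and 55.2 at E12.5, with overlapping stages (log2 fold change 0.35, SE 0.23, adjusted p = 0.293). Its cofactor Trim28 fell by 0.52 (SE 0.17, adjusted p = 0.0478) and Dnmt1 by 0.65 (SE 0.19, adjusted p = 0.0333), calls that held in 1 and 2 of 6 fits with a library left out.

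The remaining genes of the IGF axis, 12 in number, were all tested, and in E12.5 vs. E10.5 1 rose (beside 14% of all genes) and 3 fell (beside 10.5%), with a median of -0.13. There were 3 DEGs (25%, beside 15%). Igfbp3, which binds and sequesters IGFs, stood at 39.5, 38.7 and 33.1 CPM at E10.5, 60.5, 57.5 and 59.95 at E11.5, and 115, 109.8 and 127 at E12.5, a rise of 1.67 on the log2 scale (SE 0.17, adjusted p = 5.68e-05). Igf2bp1 and Igf2bp3, which encode RNA-binding proteins of the Igf2 transcript among others, fell by 1.49 (SE 0.18, adjusted p = 0.0002) and 1.54 (SE 0.23, adjusted p = 0.000842).

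Of 38 further genes reported as imprinted in some tissue, 31 were tested in E12.5 vs. E10.5. Of these 5 rose (beside 14% of all genes) and 4 fell (beside 10.5%), with a median of -0.0043 and 6 DEGs (19.4%, beside 15%). Dcn, a proteoglycan of connective tissue imprinted mainly in placenta, stood at 0.772, 0.581 and 1.98 CPM at E10.5, 3.01, 1.64 and 2.16 at E11.5, and 19.4, 18.1 and 19.1 at E12.5 and was upregulated (log2 fold change 4.09, SE 0.39, adjusted p = 3.47e-05). Osbpl5, an oxysterol-binding protein gene of the Kcnq1ot1 region, was also upregulated (log2 fold change 1.63, SE 0.20, adjusted p = 0.00023). Th, which encodes tyrosine hydroxylase, stood at 2.56, 2.55 and 4.83 CPM at E10.5, 0.269, 0.385 and 0.843 at E11.5, and 0.169, 0.162 and 0.238 at E12.5 and was downregulated (log2 fold change -4.07, SE 0.49, adjusted p = 0.000169), as was Casd1, a sialic acid acetyltransferase gene beside Sgce (log2 fold change -1.15, SE 0.18, adjusted p = 0.000945). Rtl1, the paternally expressed retrotransposon-derived gene between Dlk1 and Dio3, was downregulated as well (log2 fold change -1.02, SE 0.30, adjusted p = 0.0329), and Slc22a3 upregulated from a low level (log2 fold change 1.76, SE 0.54, adjusted p = 0.0367). The calls of Rtl1 and Slc22a3 each held in only 1 of 6 fits with a library left out.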

How the data were processed

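RNA of lambdoidal junction tissue was sequenced in 9 libraries, 3 pools of embryos at each of E10.5, E11.5 and E12.5. Per the labels and the study's methods, the authors prepared TruSeq RNA libraries, which do not mark strand, aligned reads to mm10 with HISAT2 2.0.5, and took gene counts from featureCounts. The treatment of multi-mapping and overlapping reads is not given in the sources used here. The deposited values used are raw counts. The deposited FPKM values, fold changes and p-values of the authors' own comparisons were not used. Deposited gene lengths gave the values per kilobase.

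Genes kept by filterByExpr were tested in the 6 libraries of each comparison with edgeR 4.0.16 (glmQLFit and glmQLFTest, TMM scaling, R 4.3.3) and Benjamini-Hochberg adjustment over all genes tested. The study's thresholds were kept (adjusted p of at most 0.05, absolute log2 fold change of at least 1). The fits were checked on simulated counts. Of genes changed 2-fold 54 to 77% were recovered, and of those changed 4-fold 94 to 96%. Recovery meant an adjusted p of at most 0.05 with the right sign, without the 2-fold limit of a DEG. The difference between steps was a contrast in a fit of all 9 libraries. Domain pairs were compared by exact two-sided permutation over libraries (scipy 1.17.1). Alternatives were other scalings, filters, thresholds, DESeq2 1.42.0, the replicate number as a block, parental classes with Grb10 counted as maternal and Ddc and Inpp5f as paternal, and each library left out. Removal of each library's GC trend was added after the data were seen.

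Values per library are given for every member called in a comparison and for both genes of 6 domain pairs, and for up to 4 called genes of each further list. Values named beyond this rule were chosen after they were seen. Members were chosen by name and not by a measured value, but the members and lists were drawn up with earlier results of these data known. P-values measure the spread between pools. Depth limits precision to counting error and pool-to-pool spread.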

Additional observations from a re-analysis of the deposited data

Results flagged for a closer look

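The change from E10.5 to E11.5 and that from E11.5 to E12.5 differed for 2 imprinted genes in the fit over all 9 libraries (edgeR quasi-likelihood test of the difference itself, adjusted over 16375 genes). For Zim1 the second step minus the first was 1.75 on the log2 scale (adjusted p = 0.0432), a fall in the first step followed by higher values in all 3 E12.5 libraries than in all 3 E11.5 libraries. For Asb4 it was -1.965 (adjusted p = 0.00938), a rise followed by a fall. The E11.5 libraries enter both steps with opposite signs. Without any of these the call was lost for both, with an adjusted p of 0.103 to 0.28 for Zim1 and 0.0531 to 0.0714 for Asb4. That of Zim1 was also lost without E10.5 replicate 2 (0.0683), without E12.5 replicate 1 (0.112), 2 (0.0523) or 3 (0.0626), and with at least 10 counts in every library (0.0509).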

How the results depend on the processing

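The DEGs Dlk1 and Meg3 in E11.5 vs. E10.5, Asb4 in E12.5 vs. E11.5, and in the whole interval Dlk1, Magel2, Meg3, Mest, Peg10, Usp29 and Cdkn1c held with each library left out. DESeq2 gave 5, 3 and 9 members called in the 3 comparisons, as edgeR did, beside 1136 of 18080, 819 of 17338 and 2573 of 19373 genes. With each library left out in turn, the members called were 2 to 6 in E11.5 vs. E10.5 (paternal 1 to 4, maternal 1 to 3). They were 2 to 6 in E12.5 vs. E11.5 (paternal 1 to 3, maternal 1 to 3). In E12.5 vs. E10.5 they were 8 to 10 (paternal 5 to 7, maternal 2 to 3). Among all genes tested, 395 to 1592, 502 to 1181 and 1895 to 2738 were called in these fits, in the same order. Members whose steps differ were 0 to 4. With no fold threshold 11 members were called in E11.5 vs. E10.5 (paternal 6, maternal 5), 9 in E12.5 vs. E11.5 (paternal 6, maternal 3) and 14 in E12.5 vs. E10.5 (maternal 6). Of all genes 11.8%, 12.2% and 24.6% were called without it, in the same order. At an adjusted p of at most 0.01 there were 2 in E11.5 vs. E10.5 (paternal 1, maternal 1). In E12.5 vs. E11.5 the paternal Peg10 and the maternal Asb4 stayed called. The steps of 1 member differed at that limit. With all genes of at least 1 count, 5 members were called in E12.5 vs. E11.5 (maternal 2), beside 1051 of all 28297 genes. In that setting the steps of 5 members differed. With at least 10 counts in every library, the count of paternal members called in E12.5 vs. E11.5 was 1. Over all genes 588 of 14371 were called there. The steps of 1 member, Asb4, differed in that setting. Removing the GC trend, chosen after seeing the data, gave 4 whose steps differ. The cause of these shifts was not tested, beyond the fewer genes or libraries of some settings. For the members whose steps differ in these settings, and those called at 0.01, the share over all genes is not given here. Those counts are therefore not read as a result about the members. Pair ratios kept their sign in all 42 alternatives, of which 36 left out a library and 6 added 5 counts in place of 1. For pairs without overlap between E10.5 and E12.5, leaving out a library cannot turn the sign.

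The replicate number as a block gave 2 maternal members called in E12.5 vs. E11.5 in place of 1, beside 887 of 15808 genes in place of 806. This block moved no other count by over 1.5 times. The replicate numbers do not pair the libraries, which are separate pools. Deviations from the stage means of same-numbered libraries correlated at -0.151 to 0.221, over 0.1 in 2 of 9 pairs.

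Signs turned only for changes that did not pass with all libraries. For Igf2 in E11.5 vs. E10.5 the log2 fold change became 0.015 with the GC trend removed, and was -0.101 to 0.061 with a library left out in turn. Over such fits it was -0.437 to 0.512 in E12.5 vs. E11.5 and -0.435 to 0.510 against E10.5, negative without E12.5 replicate 2, where the former passed (adjusted p = 0.0248 by edgeR). Igf2r was -0.195 to 0.017 (E11.5 vs. E10.5), Meg3 -0.481 to 0.0499 and Kcnq1ot1 -0.0449 to 0.519 (E12.5 vs. E11.5), Airn -0.119 to 0.172 and Nap1l5 -0.081 to 0.539 (E12.5 vs. E10.5). Depth limits Nap1l5, Slc22a18, Phlda2 and Ascl2, with 2 to 52 counts per library.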

Other observations

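The gene models that overlap imprinted genes held very unequal counts. Snurf, Gm49394 and Zim3 had 0 counts in all 9 libraries, and Gm44732, antisense to 30.6% of the exon bases of Cdkn1c, had at most 2. Igf2os, antisense to Igf2, had 132 to 223 counts per library, and Nespas, antisense at the Gnas locus, 13 to 40. Exons of 21 of the 36 members overlap no other annotated gene, and in 6 members the overlap covers over 10% of the exon bases.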
